A study of Mus musculus with 35 samples.

Results

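The cytosolic ribosome is built from ribosomal RNA and a set of proteins whose genes carry names starting with Rpl (large subunit) or Rps (small subunit), together with Rplp0, Rplp1, Rplp2 and Rpsa. The genes described here were taken from the deposited expression table by name: 149 rows began with one of these names, and 54 names marking pseudogenes, 10 Rps6k kinase genes and Rpl39l were left out. This gave 84 genes, the members, of the 26127 in the table, 50 of the large and 34 of the small subunit by name. Of these, 83 passed the filter on low values (over 1 RPKM in at least 2 of the 32 libraries fitted, met by 11594 genes), and the muscle-type gene Rpl3l, at 0.0247 to 1.04 RPKM, did not. RPKM, reads per kilobase of exon and per mega-read mapped, is a level per unit of transcript length.

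Total RNA was sequenced after depletion of ribosomal RNA from mouse embryonic stem cells (ESCs, background strain E14 by the labels and C57BL/6 by the methods) that carry loxP sites on both Dnmt1 alleles. Dnmt1 copies DNA methylation onto new strands at replication, and its deletion was switched on with 800 nM tamoxifen (4OHT), which activates a Cre recombinase. The cells, grown with serum and LIF with or without feeder cells, were collected as WT (control) and Dnmt1 KO libraries at days 0, 1, 3, 6, 9, 11, 17 and 25, with 2 libraries per group and 1 more pair at day 1. A single Dicer KO library came from a CRISPR deletion of Dicer in the same loxP line. The fit used replicates 1 and 2 of each day, and the third pair of day 1 entered as an alternative. The submitters call the libraries of a group biological replicates. The p-values rest on an estimate of the spread between replicates for each gene that all groups share, so libraries of other days enter it.

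Ribosomal protein genes are transcribed at high rates in growing cells, and their products are made in near-equal numbers and assembled onto ribosomal RNA in the nucleolus. Their mRNAs usually begin with a cytosine in a run of pyrimidines, the 5' terminal oligopyrimidine (TOP) motif, through which translation responds to nutrients by way of mTOR and Larp1. Many have left processed copies in the genome, and a few have paralogs with narrower expression, several of them in the male germline.

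The start regions of the genes that the results turn on are shown first. The sequences run from 40 bases before to 20 bases after the RefSeq start on GRCm38.p6, 5' to 3' on the strand of the gene, and capitals mark runs of at least 6 pyrimidines. Rps6, Rpl28 and Rplp2 show the usual start of the family, Rpl22l1 and Rps7 were among the members with the largest differences at day 25, Rpl10 and Rpl10l are a gene and its retrogene paralog, and Rpl7l1 and Rps16 were not among the members called higher at that day.
Rps6 (chr4:86857348-86857407, minus strand): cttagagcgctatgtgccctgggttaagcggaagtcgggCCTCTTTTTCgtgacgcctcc
Rpl28 (chr7:4792925-4792984, plus strand): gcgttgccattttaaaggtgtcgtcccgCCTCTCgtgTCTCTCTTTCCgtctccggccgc
Rplp2 (chr7:141447611-141447670, plus strand): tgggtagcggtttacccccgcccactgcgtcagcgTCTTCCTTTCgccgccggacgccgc
Rpl22l1 (chr3:28805468-28805527, plus strand): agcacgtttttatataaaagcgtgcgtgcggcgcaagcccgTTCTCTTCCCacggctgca
Rps7 (chr12:28635934-28635993, minus strand): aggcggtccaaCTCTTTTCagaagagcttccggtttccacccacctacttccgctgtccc
Rpl10 (chrX:74270776-74270835, plus strand): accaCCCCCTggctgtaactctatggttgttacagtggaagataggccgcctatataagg
Rpl10l (chr12:66284382-66284441, minus strand): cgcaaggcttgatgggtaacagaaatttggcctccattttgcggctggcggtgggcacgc
Rpl7l1 (chr17:46782637-46782696, minus strand): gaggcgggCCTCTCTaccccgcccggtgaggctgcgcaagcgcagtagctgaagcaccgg
Rps16 (chr7:28350649-28350708, plus strand): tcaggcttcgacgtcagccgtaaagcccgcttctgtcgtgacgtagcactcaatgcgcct

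RefSeq start regions were matched for 62 of the 84 members. A run of at least 8 pyrimidines on the strand of the gene, within 30 bases of the start, was present in 34 of them (54.8%) against 25.8% of 27025 genes. CTTCCGG or its complement CCGGAAG, the core of ETS-family sites, was found in the 300 bases from 250 before to 50 after the start in 23 members (37.1%) against 9.93% of all genes. AAGATGGC or its complement GCCATCTT, part of the YY1 motif, was in 6 members (9.68%) against 3.19%, and TATAAA in the 40 bases before the start was in 1 member (1.61%) against 2.78%. The 300 bases held a median of 22 CpG dinucleotides in the members, from 3 to 42, and of 8 in all genes. Of the genes shown, Rpl28 held 29, Rpl22l1 held 30 and Rpl10l held 13. These are matches of letters in a window, and methylation at these sites was not analysed here.

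The libraries held 24.3 to 72.1 mega-reads mapped as recovered from the RPKM steps, 5.09 to 17.5 mega-reads of them in gene exons, of which 4.71 to 9.51% fell in the members. Gene exons took 20.2 to 22.0% of reads in 20 libraries, those up to day 9 apart from the last day 1 pair, and 44.1 to 48.8% in the other 15. Groups were therefore compared in raw RPKM within each set of libraries, while means and ranges of RPKM over all libraries span both sets. Dnmt1 read 34.8 and 31.6 RPKM in the WT and 4.40 and 4.04 in the KO libraries of day 25, but at day 6 it read 3.22 and 3.40 in the libraries labelled WT and 20.2 and 20.4 in those labelled KO, against the labels. Day 6 results are given as labelled, with no direction drawn for the deletion. The ESC label was checked against 10 marker genes: none was at 0 in any library and Pou5f1 read 45.5 to 260.4 RPKM, while Lin28a was lowest in the Dicer KO library, at 0.443.

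In level, the members stood far above most genes. Their median over the 34 WT and KO libraries was 171 RPKM against 2.97 for all genes tested, and 60 members were above 100 RPKM. The highest were Rplp1 of the ribosomal stalk, at 1246 RPKM, and Rps12 at 1133, followed by Rpl32 at 733, Rpl8 at 725 and Rps23, which lies at the decoding centre, at 716. The lowest, apart from Rpl3l at 0.269, were Rpl10l at 4.26, Rps19bp1 at 8.48, Rpl21 at 14.6 and Rps16 at 25.5. Rps19bp1 is named for binding Rps19 and is not a subunit of the ribosome. The order is uncertain, since reads with a MAPQ under 20 were discarded and many members have near-identical copies elsewhere in the genome. The longest annotated coding sequence of 74 of the 84 members has at least 1 (at least 90% of its length at 95% identity), with a median of 5 and a maximum of 55 for Rpl21. A long isoform can hide copies of a shorter one: the sequences used for Rpl24 and Rpl13a, with 0 copies, were 3153 and 1272 bases.

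The median member lay at 5.87 to 5.90 on the centred log2 scale in the 4 day 0 libraries, and the gaps between replicates of a group ran from 0.00679 to 0.559, with a pooled SD of 0.12. The widest gap was in the KO group of day 11, at 6.12 and 5.56. The lowest of the WT and KO libraries were those of WT at day 25, at 5.24 and 5.30, against 6.01 and 6.0 in the KO libraries of that day.

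**Figure D1:**
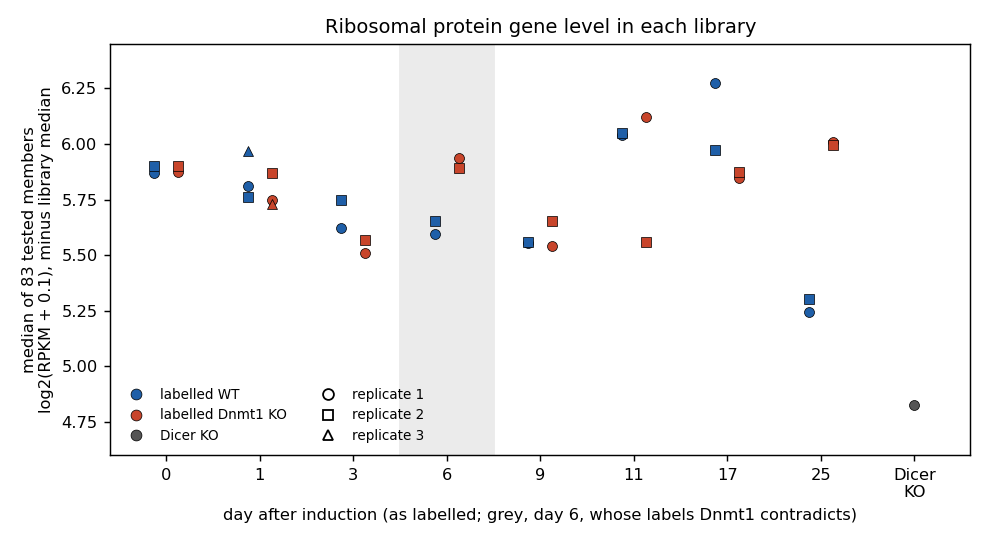
Median over the 83 tested members of log2(RPKM + 0.1) minus the library median of the tested genes (vertical axis, log2), in each library by day (horizontal axis), with colour for group and shape for replicate. The WT libraries of day 25 sit at 5.24 and 5.30, below the KO libraries at 6.01 and 6.0, and the Dicer KO library is at 4.82.

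At day 25, ribosomal protein genes of both subunits were higher in Dnmt1 KO than in WT. By limma with Benjamini-Hochberg adjustment over all genes tested (adjusted p under 0.05 throughout), 78 of 83 members were called higher, where 39.7% of all genes tested were, and 1 was called lower, where 26.2% of all genes were. The median difference was 0.65 on the log2 scale for the members and 0.13 for all genes tested. In the large subunit 48 of 49 were higher and none lower, and in the small subunit 30 of 34 were higher and 1 lower. The summed RPKM of the 84 members was 1.59 times as high in KO as in WT at this day. Their share of all summed RPKM was 1.25 times as high, at 13.0 and 13.6% in WT and 16.4 and 16.8% in KO, and their share of gene reads was 5.53 and 5.88% in WT against 8.24 and 8.49% in KO. In bulk samples, fewer cells of a type and less RNA per cell cannot be told apart.

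Rpl22l1, a paralog of Rpl22 in the large subunit, had the largest rise among the members. It read 46.0 and 51.0 RPKM in WT and 114 and 116 in KO, a log2 difference of 1.25 (SE 0.16, adjusted p = 1.61e-06) by limma. Both KO libraries were above both WT libraries by far more than replicates differed. Rpl7, a core protein of the large subunit, read 264 and 288 in WT and 621 and 680.4 in KO, a log2 difference of 1.24 (SE 0.14, adjusted p = 2.29e-07) by limma. Rps7, a small-subunit protein that also binds Mdm2, read 286 and 329 in WT and 693 and 715 in KO, with a log2 difference of 1.2 (SE 0.14, adjusted p = 3.68e-07) by limma. For Rpl7 and Rps7 the lower KO library was likewise more than the spread of either group above the higher WT library. Rpl31, which lies at the exit of the peptide tunnel, read 217 and 205 in WT and 457 and 449 in KO, a log2 difference of 1.11 (SE 0.13, adjusted p = 5.21e-07) by limma. The retrogene Rpl10l completed the 5 largest and is described with the other paralogs.

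The stalk, which recruits translation factors, was higher in KO in each of its 3 proteins, with log2 differences of 0.43 for Rplp0, 0.55 for Rplp1 and 0.43 for Rplp2. Rpl5 and Rpl11, which bind 5S RNA and Mdm2, differed by 0.79 and 0.29. Rps6, the S6 kinase substrate, read 141 and 145 RPKM in WT and 226 and 236 in KO, a log2 difference of 0.69 (SE 0.12, adjusted p = 4.64e-05) by limma, and the groups did not overlap. Rps27a, made as a fusion with ubiquitin, differed by 0.91, and Rpl13a, which also takes part in a translation-silencing complex, by 0.60. Each of these was called higher, and they were picked for their roles after their values were seen.

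The 4 members not called at day 25 were Rps15, at a log2 difference of 0.19, Rps19bp1 at 0.14, Rpl7l1 at 0.09 and Rps4y2 at 0.03. Rpl7l1 is a relative of Rpl7 that acts in ribosome assembly, and Rps4y2 is a relative of the X-linked Rps4x. The 1 member called lower was Rps16. At this day 39.7% of all genes tested were called higher and 26.2% lower. Grouped by features of sequence, all 34 with a pyrimidine run within 30 bases on either side of the start were called higher (median 0.70). So were 23 of 27 tested members with a start region and no such run (median 0.63, 1 called lower). The run can lie before the start, as in Rps7, so this class is not the same as TOP mRNAs. Of members with at most 1 near-identical copy elsewhere, 18 of 21 were called higher (median 0.60), and of those with over 5 copies, 39 of 39 (median 0.68). Copies were counted on the longest coding sequence, so the first class can hold genes with copies of a shorter isoform. Rps19bp1 and Rpl7l1, not called, were in both the class with no run and the class with at most 1 copy. Of the others not called, Rps15 was in the former and Rps4y2 in the latter. No test was run between these classes.

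**Figure D2:**
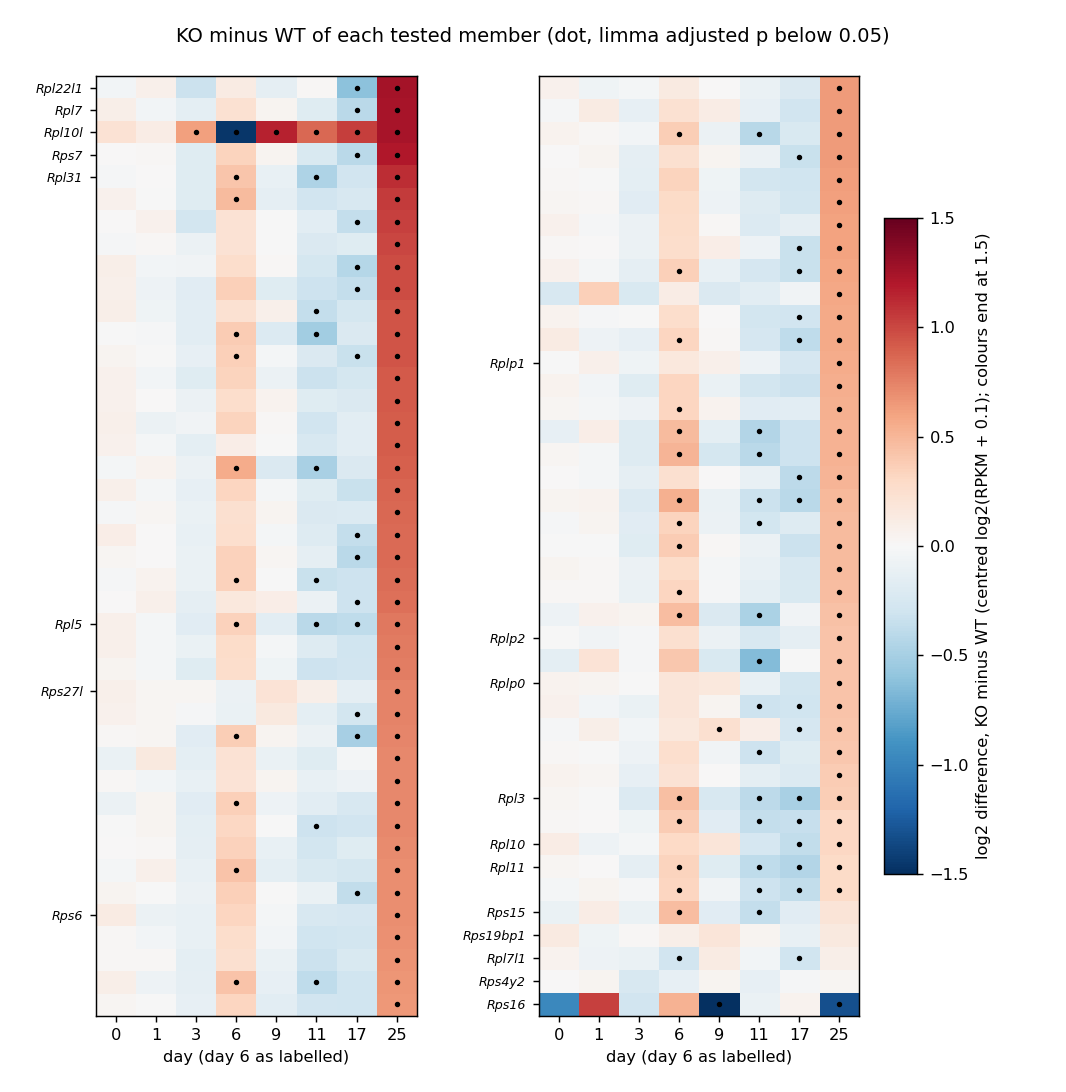
KO minus WT difference (colour, log2 of centred RPKM + 0.1, colours ending at 1.5) of the 83 tested members (rows, ordered by the day 25 difference) at each day (columns, day 6 as labelled), with a dot where the limma adjusted p was below 0.05 and names at some of the rows. The day 25 column holds 78 members called higher, while days 11 and 17 hold 22 and 29 called lower.

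The exons of the members are short, with a median of 1439 bases against 3369 for all genes tested. Removing the trend of level on exon length from each library lowered the day 25 median from 0.65 to 0.43, with 69 members still called higher and 2 lower. Cell-type markers also moved at day 25, when 39.7% of all genes tested were called higher and 26.2% lower. Of 10 ESC markers 6 were called higher and 2 lower, and Nanog rose from 30.7 and 32.7 RPKM in WT to 155 and 144 in KO, while Sall4 fell from 38.9 and 35.7 to 14.0 and 11.3. Of 9 tested feeder fibroblast markers 2 were called higher and 3 lower, and the sum of all 12 was 37.0 and 34.9 RPKM in WT and 15.0 and 12.7 in KO, with Fn1 the highest, while Dcn was at 0 in both WT libraries. The part of these markers in the ribosomal protein difference was not tested.

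Days were also compared within each genotype, the KO comparison being added after the values were seen. From day 11 to day 25 in WT, 79 of 83 members were called lower (38.8% of all genes tested) and 2 higher (30.4%), with a median log2 change of -0.78 against -0.08 for all genes. In KO the same days gave 14 members higher (29.6% of all genes) and 4 lower (24.0%), with a median of 0.14. The KO counts rested on the day 11 KO libraries, which were far apart: without the first of them 65 members were called higher and 1 lower, and without the second 4 higher and 25 lower, with a median of -0.14. Without the first or the second KO library of day 25, 10 and 5 were called higher. Rpl17, which lines the peptide tunnel, fell most in WT, from 373 and 301 RPKM at day 11 to 113 and 114 at day 25, a log2 change of -1.66 (SE 0.12, adjusted p = 2.46e-10) by limma. Rpl22l1 fell by a like amount in WT, from 128 and 148 to 46.0 and 51.0 (-1.60 on the log2 scale), and Rps26, at the mRNA exit channel, changed by -1.27 and Rpl28 by -1.20. The 2 members that rose in WT were Rps19bp1 (0.35) and Rpl7l1 (0.32), but Rps19bp1 was not called without the first WT library of day 25 (0.19) or the second of day 11 (0.29). The WT libraries of day 25 enter this comparison and the KO comparison of that day, so the results are not independent.

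The KO effect itself differed between days. Against day 9, the day 25 effect was higher for 73 members (29.4% of all genes tested) and lower for none (20.4%), with a median difference of effects of 0.70. Against day 17, it was higher for 78 (35.9%) and lower for 1 (21.8%), with a median of 0.92. Rpl22l1 led both, at 1.38 (SE 0.23, adjusted p = 8.28e-05) and 1.87 (SE 0.23, adjusted p = 1.83e-06) by limma on the log2 scale. Days 17 and 25 belong to libraries of like gene-read share, whereas days 9 and 25 do not.

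Up to day 9, leaving aside day 6, which is described below, few members were called in KO against WT. At days 0 and 1 none was called: limma called 0 of 11594 genes at day 0 (0.00% in each direction), where 245 had an unadjusted p under 0.05, 1 of them a member, and at day 1 called 0.190% of genes higher and 0.0604% lower, with 2 members at an unadjusted p under 0.05. At day 3, 1 member was higher (6.01% of all genes) and none lower (6.02%), with a median of -0.12. At day 9, 2 were higher (14.0%) and 1 lower (14.2%), with a median of -0.03. Without either KO library of day 11, 4 members were also called lower at day 3, and 3 were higher and 6 lower at day 9. The day 3 call and the larger of the day 9 rises were Rpl10l, and the day 9 fall was Rps16.

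Over the same days members fell with time in both genotypes. From day 0 to day 9 in WT, 20 members were called lower (10.6% of all genes tested) and none higher (6.09%), with a median of -0.27. In KO, a comparison added after the values were seen, 40 were called lower (20.8%) and none higher (13.4%), with a median of -0.32. In WT the largest falls among called members were Rpl10l at -0.68, Rpl22l1 at -0.61, Rps29, a zinc-binding protein of the small subunit, at -0.57, Rplp0 at -0.52 and Rpl9 at -0.48. Rplp0 read 249 and 264 RPKM at day 0 and 189.8 and 181 at day 9 in WT, and the days did not overlap. These counts rested on few libraries: without the first library of WT at day 0 or day 9, 5 members were called lower, and without the second of either, 1. Without KO replicate 1 of day 0 and of day 9 the KO counts were 2 and 6, and without replicate 2 they were 24 and 16. Leaving out either KO library of day 11, which were the widest apart, gave 53 members lower and 2 higher in WT and 69 lower in KO.

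At day 6, the libraries labelled KO had 27 members higher than those labelled WT (13.7% of all genes tested) and 2 lower (13.7%), with a median of 0.31. Among the largest called rises as labelled were Rpl10a at 0.54, Rpl22 at 0.51, Rps27 at 0.48 and Rpl13 at 0.47, and the falls were Rpl10l at -1.46 and Rpl7l1 at -0.29. Without 1 of the 4 day 6 libraries, 6 to 10 members were called higher, and without either KO library of day 11, 64 were.

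At days 11 and 17 more members were called lower than higher in KO, in counts that depended on single libraries. The share called lower was somewhat above that of all genes, and the share called higher was below it. At day 11, 22 members were lower (20.9% of all genes tested) and 1 higher (15.1%), with a median of -0.23 against -0.05 for all genes. At day 17, 29 were lower (26.0%) and 1 higher (17.9%), with a median of -0.28 against -0.09. The higher member was Rpl10l on both days. The KO libraries of day 11 held 9.2 and 6.95% of gene reads in members, where the WT libraries held 9.03 and 8.68%: without the second KO library the median turned to 0.05, with 1 member lower and 2 higher, without the first WT library the counts were the same, and without the first KO library 78 were lower, with a median of -0.51. In a fit of only the day 11 groups, 1 member was called, and it was higher. At day 17, leaving out the first WT library left 2 lower and leaving out the second gave 59, leaving out either KO library gave 8 or 9, and leaving out either KO library of day 11 gave 64. Before centring, the median tested gene of day 17 was at 1.94 and 1.96 on the log2 scale in WT and at 2.14 and 2.13 in KO. Without centring, 11 members were called lower at day 11 and 3 at day 17.

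Among the members lower at day 11, Rps26 led at -0.64 (SE 0.16, adjusted p = 0.00291) on the log2 scale by limma, with Rpl17 at -0.52, Rpl28 at -0.47 and Rpl31 at -0.46. Without the second KO library these 4 were at -0.27, -0.25, -0.19 and -0.10, and without it or the first WT library none of them was called. Rps26 read 791 and 638 RPKM in WT and 627 and 385 in KO, with the KO libraries far apart. At day 17 the falls were led by Rpl22l1 at -0.62 (SE 0.16, adjusted p = 0.00425) by limma, then Rps14, of the small-subunit platform, at -0.50, Rpl3, near the peptidyl transferase centre, at -0.48, Rpl11 at -0.44 and Rpl27 at -0.43. Without the first WT library of day 17, Rpl22l1 at -0.36, Rps14 at -0.28 and Rpl27 at -0.25 were not called, and Rpl27 was also not called without the second KO library. Rpl22l1 read 168 and 119 in WT and 102 and 107 in KO, so both KO libraries were below both WT libraries, which lay far apart.

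**Figure D3:**
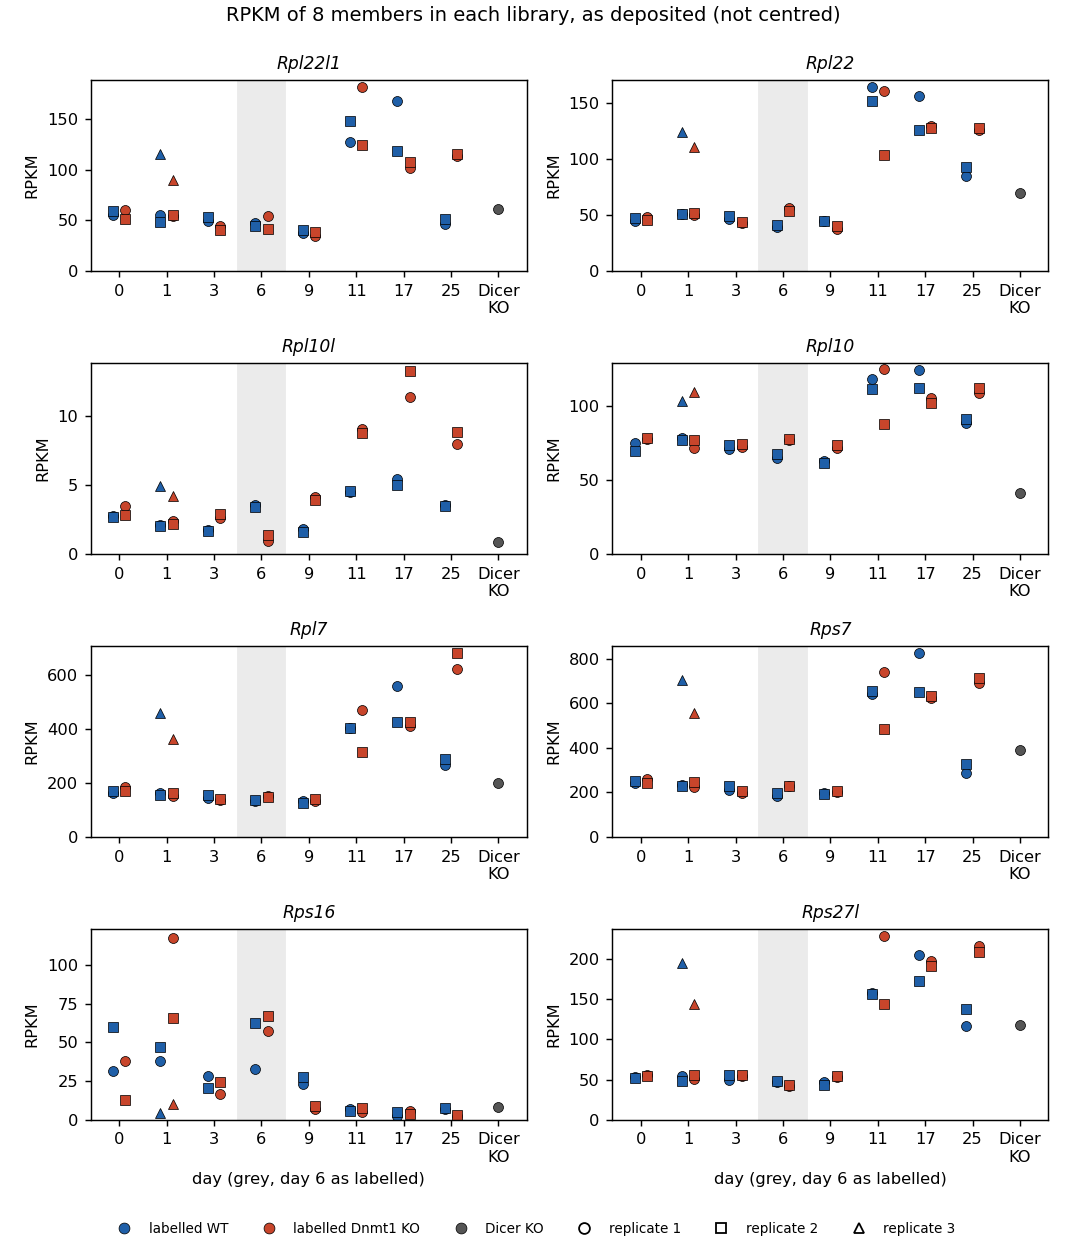
RPKM (vertical axis, linear, as deposited and not centred) of 8 members in each library by day (horizontal axis), with colour for group, shape for replicate and grey shading for day 6 as labelled. Rpl10l lies above WT in the KO libraries of days 3, 9, 11, 17 and 25, Rpl22l1, Rpl7 and Rps7 separate at day 25, and Rps16 ranges from 2.72 to 118 RPKM.

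The KO effect was also averaged over days 3, 9, 11, 17 and 25, at each of which Dnmt1 followed the labels. Dnmt1 followed them at day 1 too (-2.59), but that day was not in the mean. Few members were called: 2 were higher (26.5% of all genes tested) and 5 lower (31.7%), with a median of 0.00 against -0.02. The rises were Rpl10l at 0.98 (SE 0.05, adjusted p = 2.35e-12) and Rps27l at 0.19 (SE 0.06, adjusted p = 0.0149) by limma on the log2 scale. Of these days, Rps27l was called higher only at day 25, and was at 0.03 at day 3 and 0.21 at day 9. The falls were Rps16 at -0.67, Rpl3 at -0.19, Rpl11 at -0.17, Rpl4 at -0.12 and Rps15 at -0.12. Without the second KO library of day 11 the counts were 28 higher and 4 lower, and without the first they were 3 higher and 26 lower. Without the first WT library of day 17 they were 7 higher and 4 lower, and without the second 2 higher and 9 lower. Without centring 22 were higher and 2 lower.

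Rpl10l was the member with the most repeated difference. It is a retrogene that stands in for the X-linked Rpl10 in male germ cells, where the X chromosome is silent, and it lies at chr12:67384368-67385388 (NCBIM37). Its coding sequence is 645 bases long, as is that of Rpl10, and 84.8% identical to it, with 98 bases that differ. The first 90 coding bases of both are printed to show the bases that separate them, with capitals at the 13 positions that differ:
Rpl10: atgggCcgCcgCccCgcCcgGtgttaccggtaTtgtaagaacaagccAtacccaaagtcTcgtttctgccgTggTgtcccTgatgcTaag
Rpl10l: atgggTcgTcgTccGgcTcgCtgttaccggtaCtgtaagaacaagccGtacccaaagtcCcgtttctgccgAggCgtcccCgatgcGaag

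Rpl10l read 2.72 and 2.66 RPKM in WT and 3.49 and 2.82 in KO at day 0. At day 3 it read 1.73 and 1.64 in WT and 2.59 and 2.87 in KO, a log2 difference of 0.61 (SE 0.12, adjusted p = 0.00209) by limma. At day 9 it read 1.80 and 1.61 in WT and 4.14 and 3.90 in KO, a log2 difference of 1.15 (SE 0.12, adjusted p = 4.73e-07) by limma. At days 3, 9, 11, 17 and 25 both KO libraries were above the WT libraries of the same day with no overlap. At day 17 it read 5.42 and 5.03 in WT and 11.4 and 13.2 in KO, a log2 difference of 1.03, and at day 25 it read 3.55 and 3.5 in WT and 7.96 and 8.85 in KO, a log2 difference of 1.23. At day 6 the order was opposite to these days, 3.52 and 3.40 in the libraries labelled WT and 0.927 and 1.37 in those labelled KO, as it was for Dnmt1. Rpl10 itself was far more abundant, at 88.7 and 91.1 in WT and 109 and 113 in KO at day 25, a log2 difference of 0.30.

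Among the other paralogs, Rps27l, a p53-responsive relative of Rps27 with 76.1% identity in coding sequence, read 117 and 137 RPKM in WT and 216 and 209 in KO at day 25, a log2 difference of 0.75 (SE 0.14, adjusted p = 0.000109) by limma. Rpl36al, an autosomal copy of the X-linked Rpl36a with 87.9% identity, differed by 0.74 at day 25, near its parent's 0.68, and both were called. Rpl22l1 shares 66.9% with Rpl22, and the pair differed by 1.25 and 0.52 at day 25. Rps4y2, 79.8% identical to Rps4x, was called at none of the 8 days, at 0.03 against 0.77 for Rps4x at day 25. Rpl7l1, 53% identical to Rpl7, was called lower at day 17 (-0.30) and at day 6 as labelled. Rpl3l stayed at or below 1.04 RPKM and was not tested. The left-out Rpl39l, a germline paralog of Rpl39 with 85.3% identity, read 0.441 and 0.399 RPKM in WT and 25.4 and 25.6 in KO at day 25, a log2 difference of 5.63 (SE 0.17, adjusted p = 1.09e-16) by limma, where Rpl39 differed by 0.91.

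Rps16, of the small subunit, ranged from 2.72 to 118 RPKM over the libraries. It read 31.3 and 60.2 RPKM in the WT libraries of day 0, 118 and 65.5 in the KO libraries of day 1 and 2.75 and 2.91 in the KO libraries of day 25. Days 0 and 25 differ in gene-read share, so their raw values are not on a like footing. Replicates of a group could lie far apart, as in KO of day 0 at 37.9 and 13.0. It was called lower in KO at day 9, at 23.4 and 28.0 in WT and 7.05 and 9.04 in KO, a log2 difference of -1.71 (SE 0.41, adjusted p = 0.00332) by limma, and at day 25, at 7.06 and 7.35 in WT and 2.75 and 2.91 in KO, a log2 difference of -1.31 (SE 0.41, adjusted p = 0.00775) by limma. Its coding sequence has 3 near-identical copies elsewhere. At day 25 voom on the recovered reads did not call it lower.

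Other parts of the translation machinery were set beside the members, with no test of the lists. At day 25, 39.7% of all genes tested were called higher and 26.2% lower. Of ribosomal proteins with other names, Gnb2l1 (Rack1), a scaffold on the small subunit, at 0.74, and Fau, at 0.43 on the log2 scale, were called higher in KO at day 25. Mitochondrial ribosomal proteins were called higher in 53 of 76 tested and lower in 5 at day 25 (median 0.38), led by Mrps24 at 1.19, Mrps14 at 0.97 and Mrpl55 at 0.95. Of 48 ribosome biogenesis genes, 24 were higher and 13 lower (median 0.19), and the largest changes were falls, in Mybbp1a at -1.49, the helicase Ddx21 at -1.42 and Rrs1 at -1.34. The 6 snoRNA host genes were all called higher (median 0.37), with Gas5 at 0.94, Snhg1 at 0.53 and Snhg3 at 0.38.

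Of 25 other TOP mRNAs and translation factors, 13 were higher (39.7% of all genes tested) and 5 lower (26.2%) at day 25 (median 0.23). The elongation factor Eef1a1 rose by 1.11, whereas the poly(A)-binding protein Pabpc1 (-1.63) and the initiation factor subunit Eif3f (-1.11) fell. Of 15 regulators of ribosomal protein mRNAs, 2 were higher and 10 lower (median -0.58), with Eif4ebp2, an inhibitor of cap-dependent initiation, at -2.45, Myc at -2.41 and the mTOR inhibitor Tsc2 at -1.88. From day 11 to day 25 in WT, 10 of these 15 regulators were called higher, where 30.4% of all genes tested were (median 0.58). At day 17, 34 of 48 biogenesis genes and 39 of 76 mitochondrial ribosomal proteins were called lower in KO (medians -0.40 and -0.30), where 26.0% of all genes tested were.

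**Figure D4:**
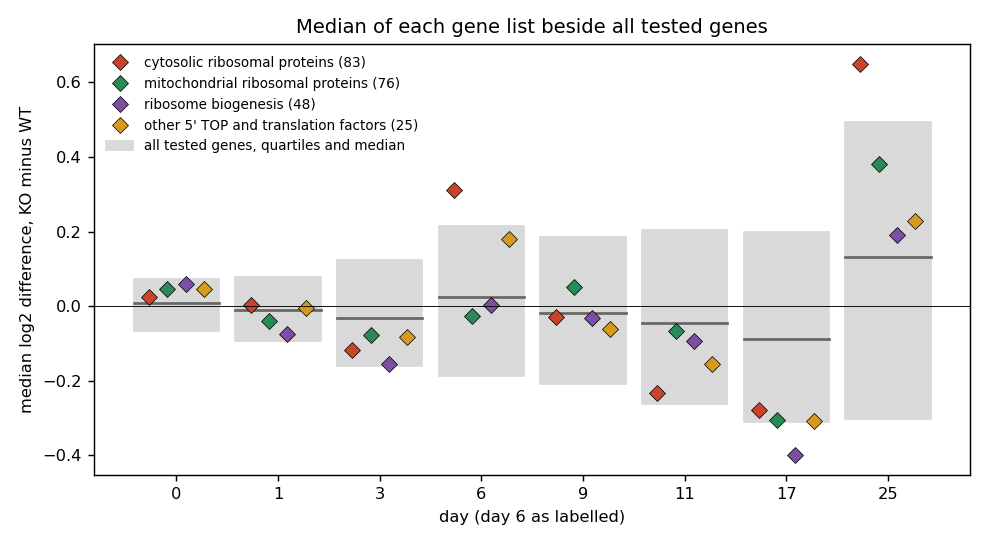
Median KO minus WT difference (vertical axis, log2 of centred RPKM + 0.1) at each day (horizontal axis, day 6 as labelled). Shown are the members, mitochondrial ribosomal proteins, ribosome biogenesis genes, other TOP mRNAs and translation factors, and all genes tested. At day 25 the members lie at 0.65, mitochondrial ribosomal proteins at 0.38 and all genes at 0.13.

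In the mean of the 5 days, 26.5% of all genes tested were called higher and 31.7% lower. Ribosome biogenesis genes were lower in 22 of 48 and higher in 2, led by Ddx21 at -0.50, the export adaptor Nmd3 at -0.45 and Rrs1 at -0.42. Regulators were lower in 11 of 15, led by Eif4ebp2 at -0.62, Myc at -0.55 and Mycn at -0.51. Eif4ebp2 and Myc were at -2.45 and -2.41 at day 25. Neither was called at day 3 (0.21 for each) or day 9 (-0.06 and 0.19), whereas Mycn was called lower at both (-0.64 and -0.53). Of the TOP mRNAs and factors, 1 was higher and 9 lower, with the intermediate filament gene Vim at 0.68, Pabpc1 at -0.49 and Eif4b at -0.41. Mitochondrial ribosomal proteins were higher in 9 and lower in 13 of 76, with Mrps24 at 0.32, Mrpl50 at -0.23 and Mrps26 at 0.23. Ddx21, Rrs1, Pabpc1 and Mrps24, at -1.42, -1.34, -1.63 and 1.19 at day 25, were likewise not called at days 3 and 9.

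The Dicer KO library has no replicate and no test. Dicer cuts precursors of microRNAs and small interfering RNAs. Its gene, Dicer1, read 4.01 RPKM here and 5.59 and 6.27 in WT of day 11, a level over the whole gene that need not follow a CRISPR deletion. Beside the 6 WT libraries of days 11, 17 and 25, which have a like gene-read share, 66 of 83 members were below every WT library (37.7% of all genes tested were) and Rps16 alone was above (23.7%). The median difference was -0.89 on the log2 scale for the members and -0.18 for all genes tested. The largest differences were -2.48 for Rpl10l, at 0.836 RPKM, -1.71 for Rpl29, at 20.3, and -1.66 for Rps26, at 181, picked by size after the values were seen. Without centring 56 were below (27.4% of all genes tested) and 3 above (31.6%). The 12 feeder fibroblast markers summed to 574 RPKM in this library, with S100a4 at 245 and Tagln at 121. In the other libraries of like gene-read share the sum was 11.9 to 43.6, and over all other libraries it reached 91.9. The part of these markers in the result was not tested.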

How the data were processed

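The libraries were total RNA depleted of ribosomal RNA with Ribo-Zero, made strand-specific and sequenced as 100 base paired-end reads. The authors trimmed reads with Trim Galore 0.3.5, mapped them to NCBIM37 with TopHat2 2.0.11 (versions per the submitters' processing notes), discarded reads with a MAPQ under 20, and quantified genes in SeqMonk. The deposited values are linear RPKM, although the methods name log2 RPM, and hold no whole counts. Groups came from the labels. The genes, lists and tests were chosen with earlier results of these data known.

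RPKM was transformed as log2(RPKM + 0.1), genes with RPKM over 1 in at least 2 of 32 libraries were kept, and each library was centred on the median of these 11594 genes. A group-mean model was fitted in limma 3.58.1 (R 4.3.3) over 16 groups of 2, with Benjamini-Hochberg adjustment over all genes and a threshold of 0.05. On this scale the changes of genes of low RPKM come out too small. Recovered reads were whole to within 0.1 for 99.6 to 99.8% of low values, and a voom fit on them was an alternative. The fit was tested on simulated data with known changes and 1 setting of the spread for every library. That simulation held no outlying library, so it does not cover groups with replicates far apart. Other alternatives varied centring, pseudocount, filter, samples, exon-length trend, replicate block and single libraries. For the alternative fits, members called are given without the share of all genes called, so they show only how stable the calls were. Named genes were Dnmt1, the 5 largest called rises and falls per day and per difference or WT comparison, the 10 largest in the mean, paralogs, the 5 highest and lowest in level, and the 3 largest called changes of each list. Near-identical copies were sought with BLAST 2.17.0 in NCBIM37 (longest GENCODE M1 coding sequence of each gene). Some genes that the rule names are not reported here.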

Additional observations from a re-analysis of the deposited data

Results flagged for a closer look

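The KO effect differed between days by a test of the difference itself, in a limma fit of the 32 libraries. Against day 9, the day 25 effect was called higher for 73 members, where it was for 29.4% of all genes tested. The largest were Rpl22l1 at a log2 difference of effects of 1.38, Rpl31 at 1.22, Rpl7 at 1.2, Rpl13 at 1.19 and Rps7 at 1.17. Against day 17 the day 25 effect was called higher for 78 (35.9% of all genes tested), led by Rpl22l1 at 1.87, Rpl7 at 1.64, Rps7 at 1.61, Rpl27 at 1.42 and Rpl31 at 1.39. It was called lower for 1 (21.8% of all genes tested), Rps16, at -1.36. Both differences share the day 25 libraries.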

How the results depend on the processing

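At day 25 the count of members called stayed within 69 to 80 of 83 over every alternative run, as against 79 in the report, and the number called in either direction in WT from day 11 to 25 within 69 to 81, as against 81. The other counts moved. Fitting only the groups compared gave 12 members called at day 3 (11 of them lower, against 1 higher in the report), 73 at day 6 as labelled, 17 at day 9, 1 at day 11, 6 at day 17, 65 in WT from day 0 to 9, 72 in KO over those days and 1 in KO from day 11 to 25. Removing the exon length trend gave 3 at day 3, 63 at day 6, 7 at day 9, 37 at day 11, 56 at day 17, 20 in the mean and 28 in KO from day 11 to 25. With the third day 1 pair, 4 were called at day 6, 1 at day 9, 5 at day 11, 7 at day 17, 2 in the mean, 48 in the difference of days 25 and 9, 1 and 3 in WT and KO from day 0 to 9, and 3 in KO from day 11 to 25. Without centring, 18 were called at day 6, 12 at day 11, 4 at day 17, 24 in the mean (22 higher) and 21 in KO from day 0 to 9, and the Dicer KO median was -0.66. Without the filter, 17 were called at day 6, 19 at day 17, 10 in WT and 24 in KO from day 0 to 9. With day 6 in the mean, 4 were called. As a share of gene reads, the day 25 log2 ratio of the summed members was 0.55 against 0.67. These member counts are given without the share of all genes called in the same fit, which can move with the fit. They show how stable the calls were and are not results about the members. The cause of these moves was not tested.

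Over fits that left out 1 library, the number called ran from 1 to 5 at day 3, 7 to 66 at day 6, 2 to 9 at day 9, 3 to 79 at day 11, 3 to 65 at day 17, 74 to 80 at day 25, 6 to 32 in the mean, 62 to 76 and 75 to 80 for the differences of day 25 from days 9 and 17, 1 to 55 in WT and 2 to 69 in KO from day 0 to 9, 76 to 81 in WT and 5 to 66 in KO from day 11 to 25, and 0 at days 0 and 1. The KO median from day 11 to 25 turned to -0.14 without the second KO library of day 11 and was 0.41 without the first.

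Replicates of 1 number do not share a source in the labels, and the correlation of their deviations within a day ran from -0.154 to 0.26, so the number was not used as a pairing. A replicate block gave 78 members higher and 1 lower at day 25, 26 lower at day 11, 36 lower at day 17 and 2 higher and 8 lower in the mean. Voom on the recovered reads gave 78 higher and 0 lower at day 25. Rpl3l was too low in reads to be tested.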
